A study of Mus musculus with 8 samples.

Results

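The results below concern a single contrast between 2 liver experiments: the effect of a Ube3a transgene minus the effect of a Ube3a knockout allele, taken gene by gene. Its members are the 11754 genes listed by name in both deposited tables, out of 13755 genes named in at least 1 of them, and gene names that a spreadsheet had turned into dates were left out. They are 85.5% of the 13754 named genes of the transgene table, which alone lists 2000 further genes. The het table has 11755 named genes and holds 1 that the other lacks. All mice were C57BL/6 and were fed a high-fat diet of 42% for 8 weeks, so the diet was shared by every group and its own effect cannot be read from these libraries. In the first experiment, livers homozygous for a Ube3a transgene (Ube3a TG, n = 2) stood beside wild-type livers (WT, n = 2). In the second, livers with 1 knockout and 1 wild-type allele of Ube3a (Ube3a het, n = 2) stood beside another WT pair (n = 2). Neither the promoter and the tissue that drive the transgene, nor the parental origin of the knockout allele, nor age and sex are given in the sources used here. Separate animals are not named for the replicates, so p-values measure only the spread between these libraries, which may be technical.

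UBE3A is an E3 ubiquitin ligase that marks other proteins for degradation. In neurons the paternal copy is silenced by a long antisense transcript, whereas most other tissues, liver included, use both copies. The title of the study names MLL4, the histone methyltransferase encoded by Kmt2d, as a protein that UBE3A degrades, and places the pair in hepatic steatosis, the storage of triglyceride in droplets inside hepatocytes. Droplets grow when coat and fusion proteins such as CIDEC shield them and when inhibitors such as G0S2 hold back the lipase that empties them. Many of these genes are targets of PPARG, a nuclear receptor that drives fat storage in adipocytes and, in fatty liver, in hepatocytes too. The question a contrast of this kind addresses is which genes answer more Ube3a and less Ube3a in opposite directions, and which answer both in the same direction.

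Each value is a normalised read count, that is, the reads of a gene divided by a factor for its library, and each table was scaled on its own. Levels are therefore compared only within a table. Effects are differences of group means on the scale log2(value + 1), where 1 unit is a 2-fold change, and fold changes are on that scale too. The difference of the effects is the TG effect minus the het effect, and it is negative for a gene lower in Ube3a TG and higher in Ube3a het. The mean of the effects is their sum divided by 2, so it is 0 for a gene whose effects mirror each other. Genes were called at a Benjamini-Hochberg adjusted p under 0.05 over all 11754 genes, from limma's moderated test on the 8 libraries. Separately, an effect was named clear where both mutant libraries lay on the same side of both WT libraries and the group means differed by at least 0.5. The TG table rests on 44193275 to 47928229 reads per library and the het table on 13171145 to 17748088, so low genes are measured less precisely in the latter. Within groups, the libraries of Ube3a TG stood farthest apart, with 564 genes differing over 2-fold between them, against 259 in their WT pair, 163 in the WT pair of the het table and 160 in Ube3a het. Only 2 libraries per group limit every comparison below.

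Ube3a itself, at chr7:59228750-59311536 on GRCm38, was 1187 and 1359 in the WT libraries and 5991 and 5938 in the Ube3a TG libraries of the first table, and 369 and 409 in WT and 301 and 279.5 in Ube3a het of the second. The transgenic libraries stood well above their WT pair, the heterozygous ones below theirs, and no groups overlapped. The TG effect was 2.23 ± 0.11 (SE, 4.69-fold, limma adjusted p = 0.000447). The het effect was -0.42 ± 0.11 (SE, limma adjusted p = 0.289, unadjusted p = 0.00498), and the Ube3a het libraries held 74.6% of the level of their WT pair, where the series description states a share of 0.5. The difference of the effects was 2.65 ± 0.15 (SE, 95% interval 2.29 to 3.01, limma adjusted p = 0.00157). Ube3a was also the only gene called for the mean of the effects, at 0.91 (limma adjusted p = 0.0321), and its TG effect was the larger in size.

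The transcript listed as C230091D08Rik, which RefSeq gives as an older name of Snhg14, the host of the antisense RNA to Ube3a, moved beside it. It was 527 and 621 in WT and 2745 and 2703 in Ube3a TG, and 176 and 187 in WT and 124 and 107 in Ube3a het. All groups were again separate, and the difference was 2.90 ± 0.18 (SE, 95% interval 2.47 to 3.32, limma adjusted p = 0.00157). In RefSeq on GRCm38.p6 the Snhg14 gene spans chr7:59272737-60450177 and overlaps 38.1 kb, or 46.4%, of Ube3a. Whether the counting used strand is not given in the sources used here, so reads of the gene and of its antisense partner cannot be told apart. Kmt2d was 2647 and 2434 in WT and 3639.8 and 3070.1 in Ube3a TG, and 758 and 716 in WT and 835 and 794 in Ube3a het. It was somewhat higher in the mutants of both tables, and the difference of the effects, 0.25 (95% interval -0.12 to 0.62, limma adjusted p = 0.467), did not pass.

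Opposite effects were more frequent than shared ones. The difference of the effects was called for 51 genes, or 0.434% of those tested, 24 of them higher (0.204%) and 27 lower (0.23%). At an unadjusted p under 0.05 there were 1963 genes (16.7%), 990 higher (8.42%) and 973 lower (8.28%). The mean of the effects was called for 1 gene (0.00851%), Ube3a, and 935 genes (7.95%) had an unadjusted p under 0.05 for it. Of the 51 genes, 26 were below WT in Ube3a TG and above WT in Ube3a het and 24 were the other way round. The remaining 1, Rpl29, was below WT in both. A call for the difference favours effects of opposite sign, so this split does not measure how frequent such effects are. Across all 11754 genes, 3405 were below WT in Ube3a TG and above it in Ube3a het and 3494 the reverse, together 58.7%, while 2453 were above WT in both and 2402 below WT in both. The difference was above 0 in 6064 of all genes and below 0 in 5690, the background for the list counts given further on. As a description across genes, which share libraries and are not independent replicates, the TG and het effects had a Pearson correlation of -0.316 and a Spearman correlation of -0.256. The WT pairs of the 2 tables are different libraries, so no control is shared between the effects.

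The same picture held for clear effects. In Ube3a TG 1000 genes (8.51%) had one, 503 higher and 497 lower, and in Ube3a het 934 genes (7.95%), 575 higher and 359 lower. The sets met in 242 genes, which is 24.2% of the first and 25.9% of the second. Opposite directions made up 211 of these 242 (1.8% of all genes), with 138 lower in Ube3a TG and higher in Ube3a het (1.17%) and 73 the other way (0.621%). Shared directions made up 31 (0.264%), with 21 higher in both (0.179%) and 10 lower in both (0.0851%). Of the 211 opposite genes, 199 had an unadjusted p under 0.05 for the difference and 28 were called. Clear opposite effects add up in the difference, so these counts follow in part from the pattern. With a library left out, the rule of no overlap is easier to meet, and pattern counts tend upward. Without Ube3a TG replicate 2 there were 208 genes lower in Ube3a TG and higher in Ube3a het and 112 of the reverse kind, and without WT replicate 2 of the het table there were 110 of the latter.

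**Figure D1:**
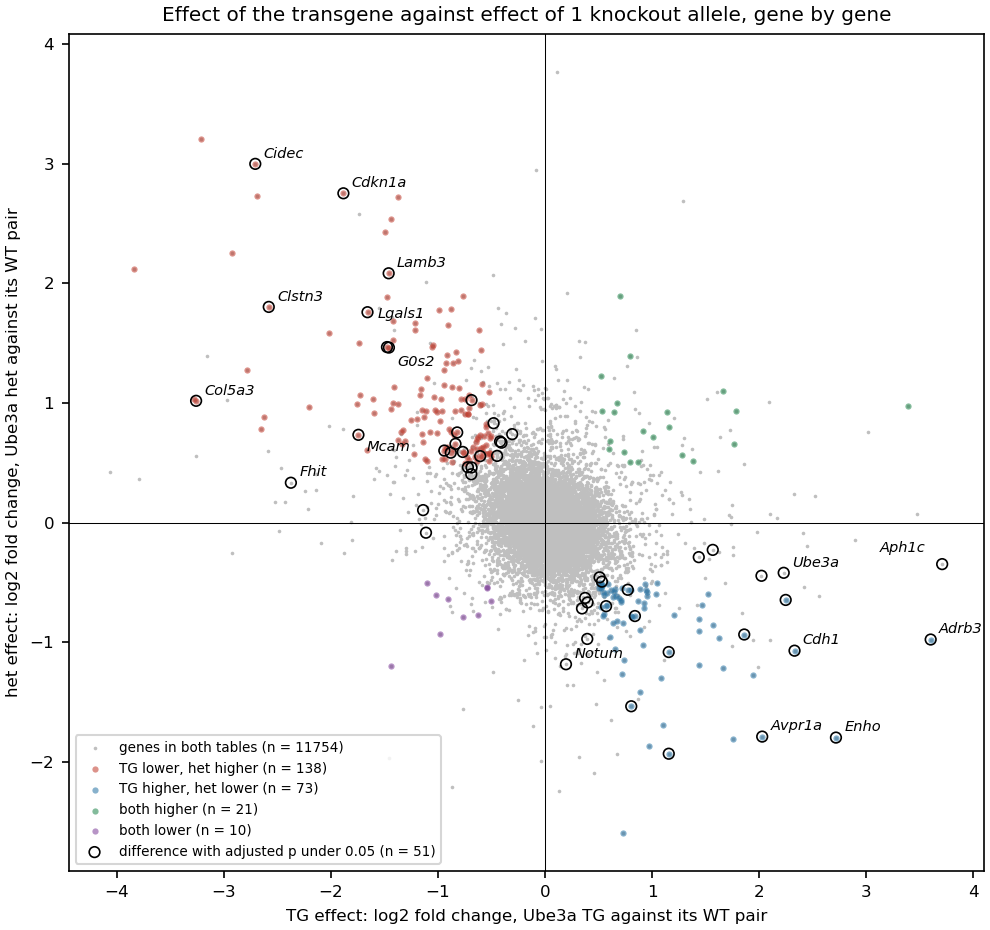
Each point is 1 of 11754 genes, with the log2 TG effect on the horizontal axis and the log2 het effect on the vertical axis; coloured points have a clear effect in both tables and circled points are the 51 genes called for the difference. The 138 genes lower in TG and higher in het fill the upper left and the 73 of the reverse pattern the lower right. The other 31 coloured points lie in the quadrants of shared direction. None of these 31 is circled, and a call for the difference favours opposite directions.

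The largest called difference was that of Cidec, which encodes a protein that fuses lipid droplets into larger ones. Cidec (chr6:113424634-113435760, minus strand) read 595 and 1187 in WT and 88.7 and 184 in Ube3a TG, and 127 and 138 in WT and 947 and 1196 in Ube3a het. Every transgenic library was below every WT library of its table and every heterozygous library above every WT library of its own. The TG effect was -2.71 (6.53-fold lower) and the het effect 3.0 (7.98-fold higher), so the difference was -5.70 ± 0.61 (SE, 95% interval -7.19 to -4.22, limma adjusted p = 0.0314). RefSeq (GRCm38.p6) gives Cidec 2 start sites, and the 250 bases before each are shown because no other called gene differed as much. The same stretch is shown for Avpr1a, described further on, which moved the other way, and for Osbpl5, lower in Ube3a TG and higher in Ube3a het, which holds the only CACGTG (an E-box) found before a called gene. Capitals mark a match to a searched motif, TATAAA in Avpr1a and CACGTG in Osbpl5. None of these windows overlaps an annotated exon.
Cidec, first start, chr6:113435761-113436010, minus strand: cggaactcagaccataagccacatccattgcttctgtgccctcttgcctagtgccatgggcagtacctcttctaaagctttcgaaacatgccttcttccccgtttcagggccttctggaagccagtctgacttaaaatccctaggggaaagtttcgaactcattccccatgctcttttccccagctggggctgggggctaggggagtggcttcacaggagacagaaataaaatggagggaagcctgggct
Cidec, second start, chr6:113434765-113435014, minus strand: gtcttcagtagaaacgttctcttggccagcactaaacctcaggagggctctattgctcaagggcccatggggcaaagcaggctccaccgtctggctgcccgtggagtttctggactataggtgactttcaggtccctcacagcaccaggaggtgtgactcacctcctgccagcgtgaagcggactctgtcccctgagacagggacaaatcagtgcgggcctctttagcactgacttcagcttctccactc
Osbpl5, chr7:143757009-143757258, minus strand: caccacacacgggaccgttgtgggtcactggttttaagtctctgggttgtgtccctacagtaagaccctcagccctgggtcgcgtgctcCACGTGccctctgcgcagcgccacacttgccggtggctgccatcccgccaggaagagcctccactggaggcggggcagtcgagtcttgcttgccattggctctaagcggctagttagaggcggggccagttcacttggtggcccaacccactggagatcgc
Avpr1a, chr10:122448249-122448498, plus strand: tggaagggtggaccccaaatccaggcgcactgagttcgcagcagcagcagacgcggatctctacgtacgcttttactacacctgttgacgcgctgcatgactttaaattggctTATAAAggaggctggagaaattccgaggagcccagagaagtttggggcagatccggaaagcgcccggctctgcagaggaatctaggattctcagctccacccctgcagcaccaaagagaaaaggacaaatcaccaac

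G and C made up 52.8% and 56.8% of the windows of Cidec, 62.8% of that of Osbpl5 and 53.6% of that of Avpr1a. Motifs were searched on both strands of the 300 bases from 250 before to 50 after each start in the RefSeq table, which held 37 of the 51 called genes, 23 called lower and 14 called higher. A gene counted where any of its windows held the motif. AGGTCA, a nuclear receptor site, was in 3 of 23 and 1 of 14. The shares were 15.6% of the 9008 genes of both tables with an entry and 18.1% of all 27025 genes with an entry. Its direct repeat with 1 base of any kind between the copies, the DR1 layout that PPAR receptors bind, was in none of the 37, against 0.0555% and 0.0481%. CACGTG was in 1 of 23 and 0 of 14, against 12% and 8.09%. TATAAA was in 3 of 23 and 1 of 14, against 9.19% and 15.7%. Each repeat match is also 2 matches to AGGTCA, and a match describes letters only.

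Several other called genes with roles in fat storage or lipid handling, grouped after their values were seen, shared the direction of Cidec. Not all did. Gpld1, a phospholipase, Adrb3, a receptor known from fat cells, and Slco1a4, a bile acid carrier, differed the other way, by 1.62, 4.58 and 1.34. G0s2, whose product inhibits the droplet lipase ATGL, was 8732 and 7311 in WT and 2355 and 3589 in Ube3a TG, and 1642 and 2482 in WT and 5789 and 5346 in Ube3a het. Transgenic values were lower and heterozygous values higher without overlap, by 2.75-fold and 2.75-fold, and the difference was -2.92 ± 0.36 (SE, 95% interval -3.76 to -2.08, limma adjusted p = 0.0314). Agpat2, an acyltransferase on the path to triglyceride and phospholipid, was 11617 and 14717 in WT and 7933 and 7430.3 in Ube3a TG, and 3023 and 3203 in WT and 4564 and 4806 in Ube3a het, with a difference of -1.36 ± 0.20 (SE, 95% interval -1.81 to -0.90, limma adjusted p = 0.0394). Clstn3 encodes calsyntenin 3, a cadherin-like protein of synapses, and its locus also gives rise to CLSTN3B, a fat cell protein of the lipid droplet. It was 1812 and 1305 in WT and 291 and 225 in Ube3a TG, and 172 and 220.4 in WT and 676 and 686 in Ube3a het. The groups were far apart, and the difference of -4.38 ± 0.28 (SE, 95% interval -5.04 to -3.72, limma adjusted p = 0.00157) stayed called with each library left out in turn. Pla2g6, a phospholipase, was 3821 and 4113 in WT and 1963 and 2568 in Ube3a TG, and 841 and 784 in WT and 1381 and 1357 in Ube3a het, with a difference of -1.57 (limma adjusted p = 0.027). Osbpl5, a lipid transfer protein of membrane contact sites, differed by -1.49 and Hsd17b12, an enzyme of fatty acid elongation, by -1.04 (limma adjusted p = 0.0394 and 0.0338). In Hsd17b12 the het effect, 0.74, was clear and the TG effect, -0.31, was below the size of 0.5. Dhrs7b, an enzyme of ether lipid synthesis, was of the same kind, at -0.42 in TG and 0.68 in het, with a difference of -1.10 (limma adjusted p = 0.0302).

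Most listed genes of the lipid droplet lay on the same side as Cidec. Of 21 listed genes for droplet coat, growth and lipase control, 19 were measured, and Cidec and G0s2 were called lower, with none higher, against 0.434% of all genes called. Below 0 were 16 of 19 differences, 15 of 19 TG effects and 1 of 19 het effects. Over all 11754 genes, 5690 differences, 5807 TG effects and 5896 het effects were below 0. The median difference was -1.15, beside 0.01 over all genes, with a median TG effect of -0.39 and a median het effect of 0.52. The TG median was -0.24 without Ube3a TG replicate 1 and -0.67 without Ube3a TG replicate 2. Among members not called were Plin2, the main droplet coat protein of hepatocytes, at -0.79 in TG and 0.94 in het (difference -1.72, limma adjusted p = 0.0678), and Plin4 at -1.38 and 2.72 (limma adjusted p = 0.159). With each library left out in turn, the list's median ran from -1.25 to -0.71 and 16 to 17 of its members were below 0. Without Ube3a TG replicate 1 the median was -0.71, a change of over 1.5 times. In bulk tissue, fewer cells of a type and less RNA per cell cannot be told apart. Of 10 listed markers of white adipocytes, only Mest and Car3 were measured, and the defining markers Adipoq, Lep, Retn, Plin1 and Cfd were not among the genes of both tables. Mest read 209 and 125 in WT and 102 and 93.2 in Ube3a TG, and 26.3 and 31.8 in WT and 52.6 and 57.5 in Ube3a het, the same direction as the droplet genes (difference -1.63, limma adjusted p = 0.133), and its part in these results was not tested.

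PPARG and the genes of fatty acid uptake had no call among 18 measured, though the genes of smallest p stood near the threshold. Mogat1, which makes diacylglycerol from monoacylglycerol, was 359 and 383 in WT and 11.7 and 52.1 in Ube3a TG, and 23.4 and 39 in WT and 139 and 131 in Ube3a het. Its difference of -5.96 (95% interval -8.07 to -3.85, limma adjusted p = 0.0589) exceeded that of Cidec in size. Pparg was 840 and 941 in WT and 427 and 371 in Ube3a TG, and 147 and 187 in WT and 481 and 270.3 in Ube3a het, with a difference of -2.27 (95% interval -3.15 to -1.40, limma adjusted p = 0.0614). Fabp4, a fatty acid carrier of adipocytes and macrophages, differed by -1.32 (limma adjusted p = 0.0814), and Cd36, the fatty acid receptor, by -2.75 (limma adjusted p = 0.15). Of the 18 differences, 12 were below 0, with a median of -0.56 that ranged from -0.81 to -0.39 with each library left out in turn. The other 6 differences were above 0, as were 6 of the 18 TG effects. Among these members, Fabp5 had TG and het effects of 3.39 and 0.97, clear and positive in both tables.

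**Figure D2:**
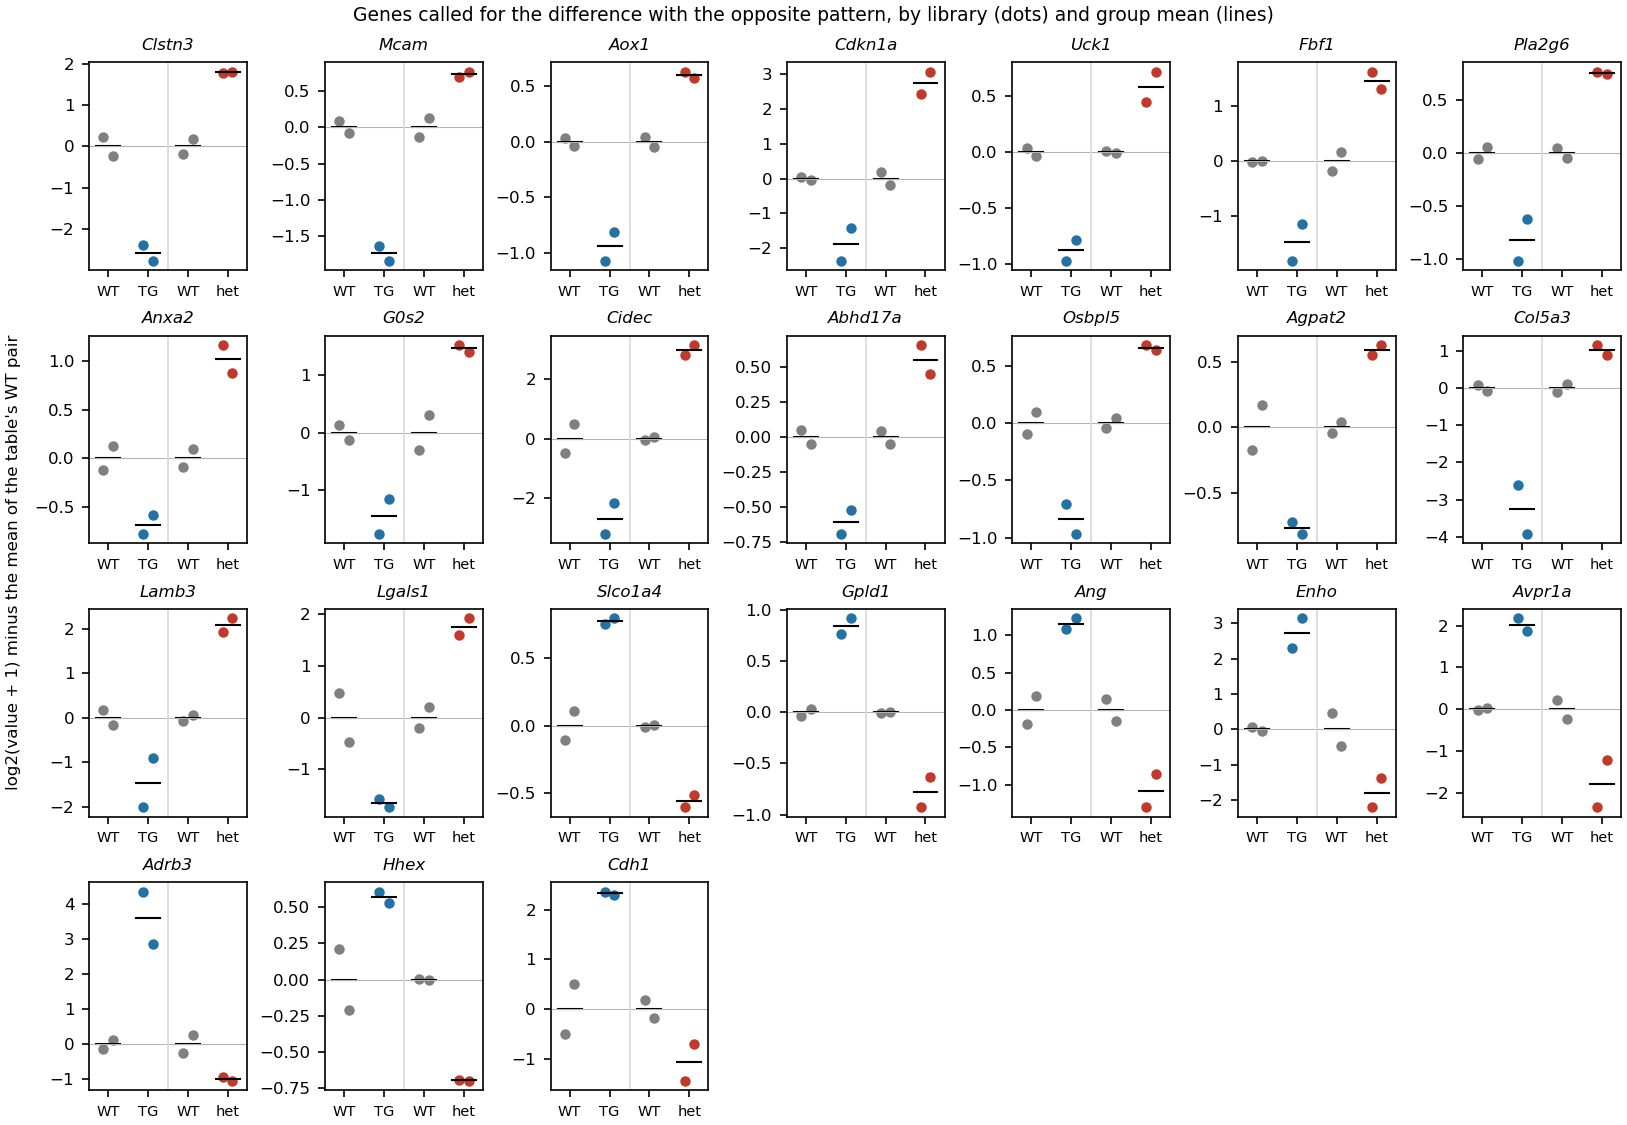
Dots are single libraries and lines group means, as log2(value + 1) minus the mean of the WT pair of the same table, for the 16 called genes lower in TG and higher in het, from Clstn3 to Lgals1, and for 8 called genes of the reverse pattern, from Slco1a4 to Cdh1. By the rule that chose these genes, both TG dots lie on one side of their WT pair and both het dots on the other side of theirs. The vertical scale differs between panels.

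Cdkn1a, which encodes the cell cycle inhibitor p21, was 193 and 184 in WT and 36.1 and 70.1 in Ube3a TG, and 51.7 and 40 in WT and 251 and 388 in Ube3a het. It was 3.69-fold lower with the transgene and 6.73-fold higher with the knockout allele, and the difference was -4.63 ± 0.48 (SE, 95% interval -5.75 to -3.52, limma adjusted p = 0.0177). It was the single called member of 17 measured p53 targets and cell cycle inhibitors, of which 13 had a difference below 0 (median -0.53, but -0.23 without Ube3a TG replicate 1, -0.97 without Ube3a TG replicate 2, -0.32 without WT replicate 2 of the het table and -0.22 without Ube3a het replicate 2). Genes of DNA replication and mitosis had 0 called of 19 measured, and 16 differences below 0. A lower difference with an unadjusted p under 0.05 was found in 7, against 8.28% of all genes. Their median TG effect was -0.45, their median het effect 0.14 and their median difference -0.48 (-0.76 without WT replicate 2 of the TG table). The TG median was -0.27 without WT replicate 1 of the TG table and -0.73 without WT replicate 2 of the TG table. The het median was -0.019 without WT replicate 1 of the het table, 0.32 without WT replicate 2 of the het table, 0.018 without Ube3a het replicate 1 and 0.22 without Ube3a het replicate 2, so its sign was not stable. The replicative helicase subunits Mcm2, Mcm3, Mcm4, Mcm5 and Mcm6 had TG effects of -1.38, -1.07, -1.11, -1.34 and -1.02 and het effects of 0.69, 0.26, 0.13, 0.66 and 0.39. Cdkn1a and these subunits thus lay on the same side of 0 in each table, although only Cdkn1a passed. Fbf1, which encodes a protein of the transition fibres of the cilium base, was 1353 and 1368 in WT and 388 and 615 in Ube3a TG, and 253 and 319.9 in WT and 879.9 and 704 in Ube3a het, with a difference of -2.94 ± 0.32 (SE, 95% interval -3.70 to -2.18, limma adjusted p = 0.0253).

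Some called genes, grouped here after their values were seen, encode matrix or adhesion proteins and were lower in Ube3a TG and higher in Ube3a het. The called adhesion gene Cdh1, described further on, went the other way (difference 3.40). The listed stellate cell and matrix markers as a whole had 10 of 20 differences above 0 and 10 below. Col4a1 and Col4a2, the paired chains of type IV collagen, lie head to head on chromosome 8 with annotated starts that overlap by 22 bases. Col4a1 was 1770 and 1419 in WT and 1197 and 1078 in Ube3a TG, and 429 and 466 in WT and 724 and 875 in Ube3a het. Col4a2 was 1222 and 1086 in WT and 678 and 720.2 in Ube3a TG, and 304 and 284 in WT and 396 and 414 in Ube3a het. Neither gene's groups overlapped, and the differences were close to each other, -1.31 and -1.18 (limma adjusted p = 0.0496 and 0.0302). Col5a3, a type V collagen chain, was 838 and 743 in WT and 129.6 and 51.1 in Ube3a TG, and 183 and 210.2 in WT and 438 and 362 in Ube3a het, a difference of -4.28 ± 0.56 (SE, 95% interval -5.60 to -2.95, limma adjusted p = 0.0442). Lamb3, a laminin chain, was 584 and 463 in WT and 128 and 277 in Ube3a TG, and 84.8 and 93.3 in WT and 341 and 423 in Ube3a het, a difference of -3.54 ± 0.48 (SE, 95% interval -4.69 to -2.40, limma adjusted p = 0.0442). In GENCODE the Lamb3 span contains the whole of G0s2, 1057 bases on the other strand, so reads of this pair may not be fully separate. Mcam, an adhesion molecule of vessel walls, was 341 and 304 in WT and 102 and 89.1 in Ube3a TG, and 71.2 and 85.1 in WT and 127 and 133 in Ube3a het, a difference of -2.48 ± 0.25 (SE, 95% interval -3.05 to -1.90, limma adjusted p = 0.0152). Sulf2, which trims heparan sulphate, differed by -1.15, with effects of -0.69 in TG and 0.46 in het. Markers of endothelium, described further on, lay in the same direction, with 20 of 22 differences below 0, and their part in these results was not tested.

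Lgals1 and Anxa2 encode galectin 1 and annexin A2, proteins abundant in stromal cells. Lgals1 was 2166 and 1116 in WT and 519 and 466 in Ube3a TG, and 343 and 453 in WT and 1196 and 1492 in Ube3a het. The WT libraries of the TG table stood well apart from each other, yet no groups overlapped, and the difference was -3.42 ± 0.44 (SE, 95% interval -4.48 to -2.35, limma adjusted p = 0.0457). Anxa2 was 844 and 1002 in WT and 534 and 611 in Ube3a TG, and 235 and 269 in WT and 564 and 464 in Ube3a het, a difference of -1.71 ± 0.21 (SE, 95% interval -2.20 to -1.22, limma adjusted p = 0.027). Enzymes in the same direction were Aox1, an aldehyde oxidase (-0.94 in TG and 0.60 in het, limma adjusted p = 0.0165), and Uck1, a uridine kinase (-0.88 and 0.58, limma adjusted p = 0.0253). Abhd17a, which removes palmitate from proteins, had effects of -0.61 and 0.55 (limma adjusted p = 0.0381). Srxn1, sulfiredoxin, an NRF2 target that repairs peroxiredoxins, had effects of -0.69 in TG and 0.40 in het (limma adjusted p = 0.0302). It was the called member of 16 measured NRF2 targets and metallothioneins, 13 of them with a difference below 0 (median -0.64). That median was -0.26 without WT replicate 1 of the TG table, -0.34 without Ube3a TG replicate 2 and -0.42 without WT replicate 1 of the het table.

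The called genes described next were higher in Ube3a TG and lower in Ube3a het, and they form no list. Adrb3, the beta 3 adrenergic receptor known from fat cells, was 42 and 50.5 in WT and 952 and 343 in Ube3a TG, and 80 and 114 in WT and 50 and 46 in Ube3a het. The transgenic libraries differed by over 2-fold from each other, but both lay far above WT, and the difference was 4.58 ± 0.63 (SE, 95% interval 3.09 to 6.07, limma adjusted p = 0.0442). With edgeR it did not pass (edgeR adjusted p = 0.0614). The het effect of Adrb3 was -0.98, with a 95% interval of -2.03 to 0.07 that included 0. Enho, the gene of the peptide adropin, was 65 and 60.6 in WT and 314 and 559 in Ube3a TG, and 77 and 40 in WT and 11.2 and 20.7 in Ube3a het, a difference of 4.52 ± 0.60 (SE, 95% interval 3.11 to 5.92, limma adjusted p = 0.0338). Avpr1a (chr10:122448499-122453452, plus strand), the vasopressin receptor of hepatocytes, was 206 and 213 in WT and 951 and 775 in Ube3a TG, and 253 and 185 in WT and 41.4 and 92 in Ube3a het. Here the groups were wide apart in both tables, 4.08-fold higher and 3.46-fold lower, and the difference was 3.82 ± 0.50 (SE, 95% interval 2.63 to 5.0, limma adjusted p = 0.0394). Its TATAAA, shown in capitals among the sequences, begins 137 bases before the RefSeq start.

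Slco1a4, a bile acid and organic anion carrier, was 5002 and 5805 in WT and 9086 and 9345 in Ube3a TG, and 1558 and 1574 in WT and 1028 and 1094 in Ube3a het (difference 1.34, limma adjusted p = 0.0253). Gpld1, a secreted phospholipase that releases GPI-anchored proteins, was 9189 and 9665 in WT and 15986 and 17811 in Ube3a TG, and 4531 and 4542 in WT and 2382 and 2924 in Ube3a het (difference 1.62, limma adjusted p = 0.0253). Its effects were 0.84 and -0.78. Ang, the secreted ribonuclease angiogenin, had effects of 1.16 and -1.08 (difference 2.24, limma adjusted p = 0.027). F7, coagulation factor VII, had effects of 0.38 and -0.63 (difference 1.01, limma adjusted p = 0.0338). The complement C1r genes C1ra and C1rb, near-identical neighbours 46.9 kb apart whose reads may be shared, differed by 0.97 and 1.03 (limma adjusted p = 0.0471 and 0.0394). They lie 47.6 kb and 105.5 kb from Clstn3, which moved the other way.

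Cdh1, the epithelial cadherin, which is enriched in periportal hepatocytes and in bile ducts, was 94 and 188 in WT and 687 and 660.1 in Ube3a TG, and 68.3 and 53.3 in WT and 21.5 and 36.8 in Ube3a het. Transgenic libraries were several-fold above WT and heterozygous libraries below it, and the difference of 3.40 ± 0.52 (SE, 95% interval 2.20 to 4.60, limma adjusted p = 0.0496) was just inside the threshold. Hhex, a transcription factor of hepatocyte and endothelial development, had effects of 0.57 and -0.70 (difference 1.27, limma adjusted p = 0.0493). Notum and Rnf43, feedback inhibitors of WNT signalling and markers of hepatocytes around the central vein, were clear in Ube3a het only. Notum was 2112 and 2204 in WT and 2371 and 2577 in Ube3a TG, and 1057 and 905 in WT and 401 and 461 in Ube3a het (difference 1.38, limma adjusted p = 0.027). Rnf43 was 1392 and 1290.3 in WT and 1844 and 1692 in Ube3a TG, and 608 and 604 in WT and 356 and 408 in Ube3a het (difference 1.07, limma adjusted p = 0.0394). In both genes the heterozygous libraries were below WT while the transgenic ones were slightly above. They were the 2 called of 18 pericentral markers, against 0.434% of all genes called. Of the 18, 15 had a difference above 0, against 6064 of all 11754 genes. Among the others, Lgr5, a WNT pathway receptor, had effects of 0.31 and -1.06 and Znrf3, a relative of Rnf43, 0.27 and -0.56 (limma adjusted p = 0.27 and 0.142). The median of the pericentral list was 0.32, and it was 0.08 without WT replicate 1 of the TG table, 0.70 without WT replicate 2 of the TG table, 0.69 without Ube3a TG replicate 1 and 0.55 without Ube3a het replicate 2. Among 16 periportal markers, Cdh1 was the single call and the median difference was -0.19 (-0.06 without Ube3a TG replicate 2, -0.09 without WT replicate 1 of the het table, -0.002 without Ube3a het replicate 1 and -0.42 without Ube3a het replicate 2).

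**Figure D3:**
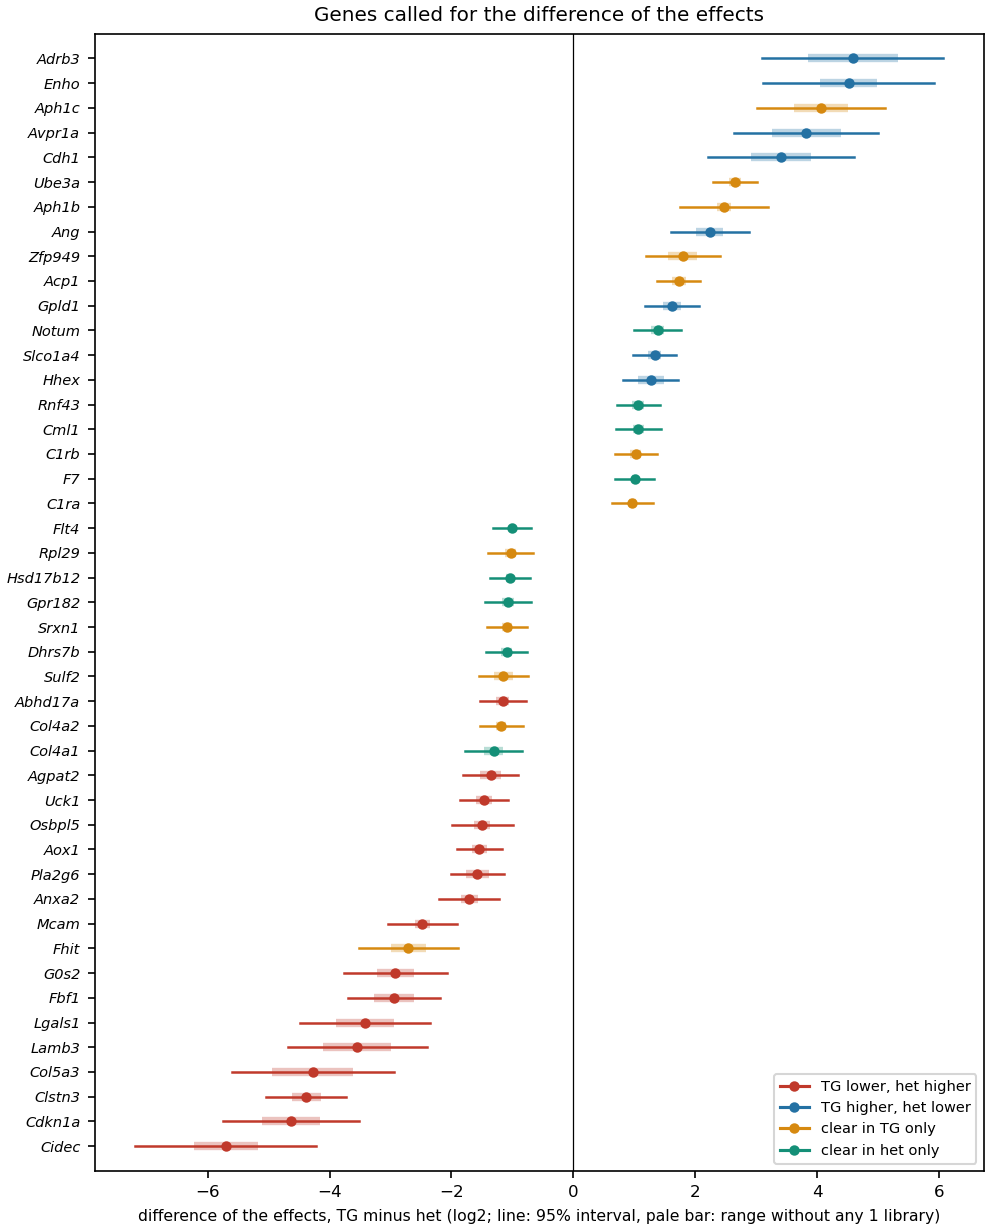
Dots give the difference of the effects (log2, TG minus het) for 45 called genes, without predicted gene models, thin lines its 95% interval and pale bars its range when any single library is left out; colours give the pattern. Values run from -5.70 for Cidec to 4.58 for Adrb3. No interval crosses 0, which follows from drawing only called genes. No bar crosses 0 either, which that choice favours.

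Of the 51 called genes, 28 had the opposite pattern with a clear effect in each table, 13 were clear only in Ube3a TG and 10 only in Ube3a het. For 20 of the 28, the 95% interval of the mean of the effects included 0, the value that equal and opposite effects give. G0s2 had effects of -1.46 and 1.46 and a mean of 0.00 (95% interval -0.42 to 0.42). Cidec had a mean of 0.15 (95% interval -0.60 to 0.89). These intervals leave room for unequal sizes, so equality was not shown. Col5a3 had a mean of -1.12 (95% interval -1.78 to -0.46), which lay below 0. In 32 of the 51 the TG effect was the larger in size.

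Genes called with a clear effect in Ube3a TG alone included the largest transgenic effect of the 51, that of Aph1c. Aph1c and Aph1b, subunits of gamma-secretase and near-identical neighbours 19.5 kb apart on chromosome 9, may share reads. Aph1c was 59 and 31.3 in WT and 507 and 654 in Ube3a TG, and 21.5 and 22.6 in WT and 18.1 and 16.1 in Ube3a het. Its TG effect, 3.71 (13.1-fold higher), stood beside a het effect of -0.35, and the difference was 4.06 ± 0.46 (SE, 95% interval 3.0 to 5.11, limma adjusted p = 0.025). Aph1b was 70 and 68.7 in WT and 263 and 309 in Ube3a TG, and 28.3 and 25.6 in WT and 20.7 and 18.4 in Ube3a het (difference 2.47, limma adjusted p = 0.0296). Acp1, a low molecular weight phosphatase, was 624 and 663 in WT and 1609.9 and 1887 in Ube3a TG, and 827 and 819 in WT and 684 and 663 in Ube3a het, a difference of 1.73 ± 0.15 (SE, 95% interval 1.38 to 2.07, limma adjusted p = 0.00775). Zfp949, a zinc finger gene, was 396 and 284 in WT and 1009.6 and 983 in Ube3a TG, and 137 and 109.7 in WT and 102 and 107 in Ube3a het (difference 1.80, limma adjusted p = 0.0424). In all of these the transgenic libraries were far above every WT library, while the het effects were all between -0.44 and -0.23.

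Lower in Ube3a TG alone were Fhit, a diadenosine triphosphate hydrolase, and Rpl29, a ribosomal protein. Fhit was 646 and 430.4 in WT and 108 and 94.2 in Ube3a TG, and 67.3 and 94.3 in WT and 109 and 93.2 in Ube3a het, with heterozygous values inside or just above the WT range and a difference of -2.71 ± 0.35 (SE, 95% interval -3.52 to -1.89, limma adjusted p = 0.0305). Rpl29 was 3790 and 3355 in WT and 1681 and 1619 in Ube3a TG, and 1496 and 1347 in WT and 1267 and 1414 in Ube3a het. It was the only called gene with effects of 1 sign, -1.11 and -0.09, its difference was -1.03 (limma adjusted p = 0.0493), and ribosomal protein genes have many processed copies that could take reads. By place, 47 of the 51 called genes had a position in GENCODE, and chromosome 9 held 7 of them, with 626 of the 11339 placed genes (5.52%). Among the 13 called genes clear in Ube3a TG only, 4 were on chromosome 9, namely Aph1b, Aph1c, Zfp949 and Rpl29.

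Genes with clear effects in the same direction in both tables were few, and none with that pattern was called for the mean of the effects. Lowest in p was Hdhd3, a hydrolase of the haloacid dehalogenase family, at 1271 and 1533 in WT and 642 and 661 in Ube3a TG, and 255 and 239.9 in WT and 174 and 175 in Ube3a het. Both mutants were below WT without overlap, and the mean of the effects was -0.80 (95% interval -1.0 to -0.60, limma adjusted p = 0.0599). Cdt1, a licensing factor of replication origins, had effects of -1.02 and -0.61 (mean -0.81, limma adjusted p = 0.46). Ccne1, the gene of cyclin E, had -0.90 and -0.64 (mean -0.77, limma adjusted p = 0.593), and Igfbp5, an IGF binding protein, -1.44 and -1.20 (mean -1.32, limma adjusted p = 0.593). The mutant libraries of Igfbp5 spread widely, 344 and 878 in Ube3a TG. Dynlt1b, Hnf4aos, Spsb4 and Tubd1 were the others named by rank of p, with means from -0.78 to -0.54 and limma adjusted p from 0.551 to 0.605.

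Higher in both mutants was Bmper, a secreted regulator of bone morphogenetic proteins, at 153 and 136 in WT and 201 and 275 in Ube3a TG, and 16.6 and 23.6 in WT and 84.5 and 69 in Ube3a het. The het effect, 1.90, exceeded the TG effect, 0.70, and the mean was 1.30 (95% interval 0.88 to 1.72, limma adjusted p = 0.147). Megf9, a membrane protein with EGF-like domains, was 404 and 337 in WT and 533 and 628 in Ube3a TG, and 72.2 and 85.1 in WT and 157 and 143 in Ube3a het (mean 0.79, limma adjusted p = 0.207). Tiparp, an ADP-ribosyltransferase induced by the aryl hydrocarbon receptor, had effects of 0.61 and 0.68 (limma adjusted p = 0.46). Yod1, a deubiquitinase, had 1.01 and 0.72 (limma adjusted p = 0.478), and Irf2bp2, a transcriptional corepressor, 0.87 and 0.51 (limma adjusted p = 0.502). Klf11, Srrm4 and Pls1 had means of 0.88, 1.38 and 1.09, with limma adjusted p of 0.502, 0.502 and 0.551. The counts of same-direction genes were higher with any single library left out. With 1 library in a group, the rule of no overlap is easier to meet, so such counts tend upward. Against 21 higher in both with all libraries, there were 56 and 38 without WT replicates 1 and 2 of the TG table, 46 and 76 without Ube3a TG replicates 1 and 2, 35 and 32 without WT replicates 1 and 2 of the het table, and 42 without Ube3a het replicate 2. Against 10 lower in both there were 20 and 24 without WT replicates 1 and 2 of the TG table, 16 and 36 without Ube3a TG replicates 1 and 2, 31 without WT replicate 1 of the het table, and 19 and 18 without Ube3a het replicates 1 and 2.

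**Figure D4:**
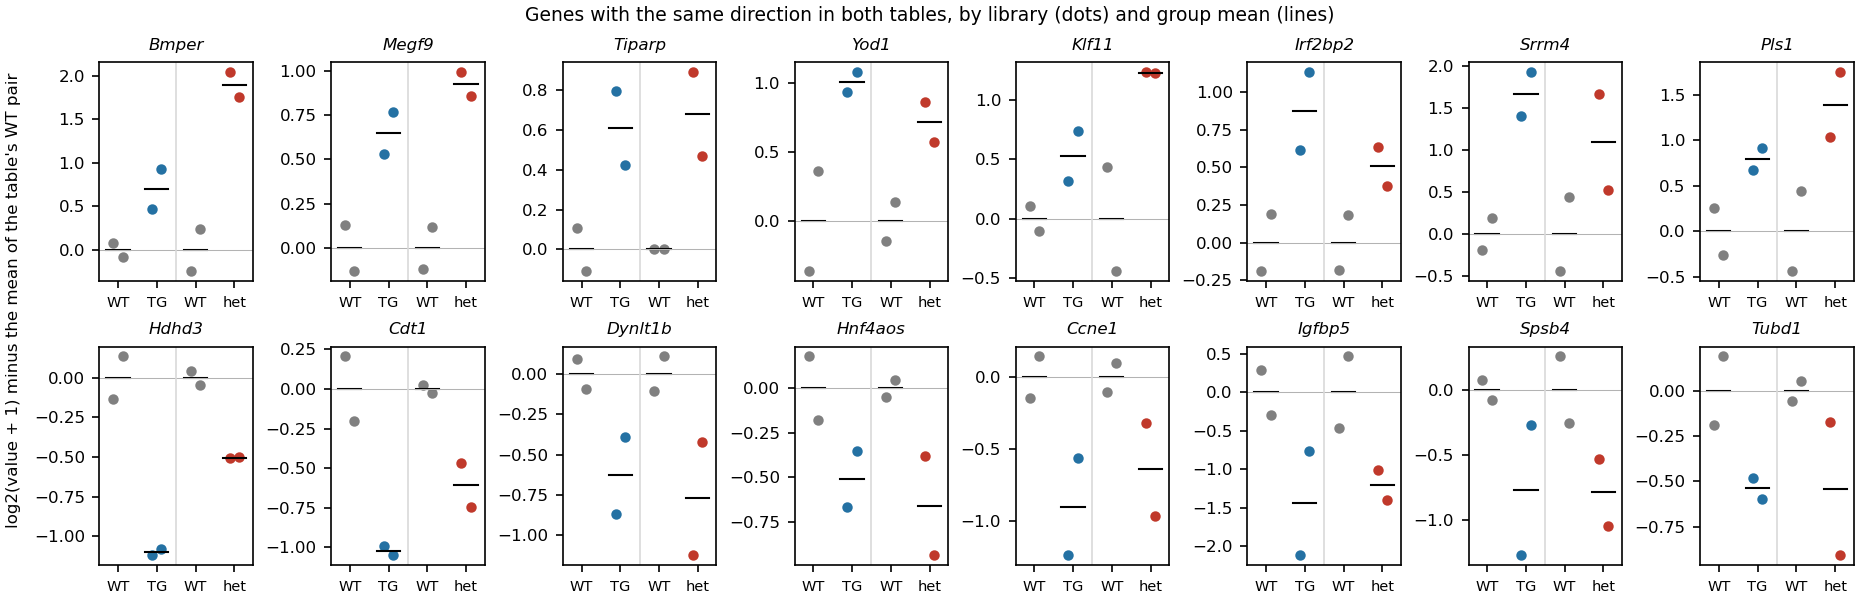
Dots are single libraries and lines group means, as log2(value + 1) minus the mean of the WT pair of the same table, for 8 genes higher (upper row) and 8 lower (lower row) in both mutants, in order of p for the mean of the effects. By the rule that chose these genes, both mutants' dots lie on the same side of WT in both tables. The mean runs from 0.64 to 1.38 in the upper row and from -0.54 to -1.32 in the lower row.

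Fatty acid oxidation and PPARA target genes were on the same side as the droplet genes, without a call. Of 34 measured, 33 had a difference below 0, 33 a TG effect below 0 and 32 a het effect above 0. Over all 11754 genes these counts were 5690, 5807 and 5858. An unadjusted p under 0.05 for a lower difference was found in 9, against 8.28% of all genes. The exception was Ppargc1a, the coactivator PGC-1 alpha, at 525 and 529 in WT and 905 and 947 in Ube3a TG, and 140.4 and 161 in WT and 147 and 156 in Ube3a het, a difference of 0.80 (limma adjusted p = 0.104). Ehhadh, an enzyme of peroxisomal oxidation, differed by -1.13 (limma adjusted p = 0.147). The list's median was -0.91, with TG and het medians of -0.49 and 0.38. The TG median was 0.10 without Ube3a TG replicate 1 and -0.95 without Ube3a TG replicate 2, and the het median 0.22 without Ube3a het replicate 2. The median difference was -0.28 without Ube3a TG replicate 1, where 23 of 34 differences were below 0 and 11 above, so the count and the sign of the TG median rested on that library.

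Lipid synthesis genes gave 1 call, and their medians varied with the library. Fatty acid synthesis genes had 0 calls of 22, with a median TG effect of 0.24, a median het effect of 0.79 and a median difference of -0.27. The TG median was -0.51 without Ube3a TG replicate 1 and 0.92 without Ube3a TG replicate 2, and the het median 0.38 without Ube3a het replicate 1. The median difference was -0.47 without WT replicate 2 of the TG table, -1.25 without Ube3a TG replicate 1, 0.28 without Ube3a TG replicate 2, -0.06 without Ube3a het replicate 1 and -0.60 without Ube3a het replicate 2, so the signs of the TG median and of the difference depended on the library. Sterol synthesis genes had 0 calls of 25, 23 TG effects and 22 het effects above 0, and a median difference of 0.36, which was -0.42 without Ube3a TG replicate 1, 0.96 without Ube3a TG replicate 2 and 0.10 without Ube3a het replicate 2. Their median TG effect was 0.73 (0.0097 without Ube3a TG replicate 1 and 1.21 without Ube3a TG replicate 2), and their median het effect 0.35 (0.16 without Ube3a het replicate 1 and 0.61 without Ube3a het replicate 2). The summed level of the synthesis genes was 1499060 and 1266060 in WT, 3009940 and 518401 in Ube3a TG replicates 1 and 2, 365071 and 436216 in WT of the het table and 925911 and 537834 in Ube3a het. The transgenic libraries thus lay on either side of their WT pair. Glycerolipid assembly enzymes had 1 call, Agpat2, of 15 and a median difference of -0.20 (-0.12 without WT replicate 1 of the TG table, -0.13 without Ube3a TG replicate 2, -0.12 without WT replicate 1 of the het table and -0.11 without Ube3a het replicate 1).

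Other lists had few or no calls. Among 48 genes of cytochrome P450 enzymes, glutathione transferases and carboxylesterases, Gsta1 had effects of -2.78 and 1.27 and Cyp2c37 effects of 0.72 and -1.26 (limma adjusted p = 0.0539 and 0.0826). Bile acid genes had 1 call of 23, Slco1a4. Of 16 genes with higher levels in male liver none was called, with 12 differences above 0 and 4 below. Closest to the threshold were Mup3, a major urinary protein with near-identical copies (0.45 in TG, -0.93 in het, limma adjusted p = 0.0539), and Hsd3b5, a steroid enzyme (1.95 and -1.27, limma adjusted p = 0.0641). Of the members below 0, Cyp4a12a had effects of -0.82 in TG and 1.35 in het, and Elovl3 -2.02 and 1.58 (limma adjusted p = 0.232 and 0.311). Acute phase genes had 0 calls of 24, with 14 differences above 0 and 10 below. Their median was 0.21, from 0.03 to 0.30 with each library left out in turn. Among them, Lcn2, Saa1 and Saa2 had TG effects of -1.42, -0.90 and -0.88 and het effects of 1.53, 1.65 and 1.78. Hamp, the gene of hepcidin, had 0.97 and -1.87, with limma adjusted p from 0.22 to 0.347 for these 4. Genes of the MLL3 and MLL4 complexes and related histone enzymes had 0 calls of 20 and a narrow spread, 17 differences above 0 and a median of 0.26. Kdm6a, a demethylase of these complexes, had the smallest p, at 0.56 and -0.05 (limma adjusted p = 0.137). At an unadjusted p under 0.05 this list had 5 higher and 0 lower. Over all genes, 8.42% were higher and 8.28% lower at that level. Some of the lists that follow lay near these shares, while clock genes and apolipoproteins had a larger share higher. At that level, clock genes (0 calls of 18) had 6 higher and 0 lower. Unfolded protein response genes (0 of 21) had 1 higher and 0 lower, and glucose and glycogen genes (0 of 23) 3 higher and 1 lower. Apolipoproteins (0 of 20) had 6 higher and 1 lower, interferon-stimulated genes (0 of 29) 4 higher and 1 lower, and immediate early and heat shock genes (0 of 16) 1 higher and 0 lower. UBE3A-related ligases, E2 enzymes and proteasome genes had 1 call of 27, Ube3a itself.

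**Figure D5:**
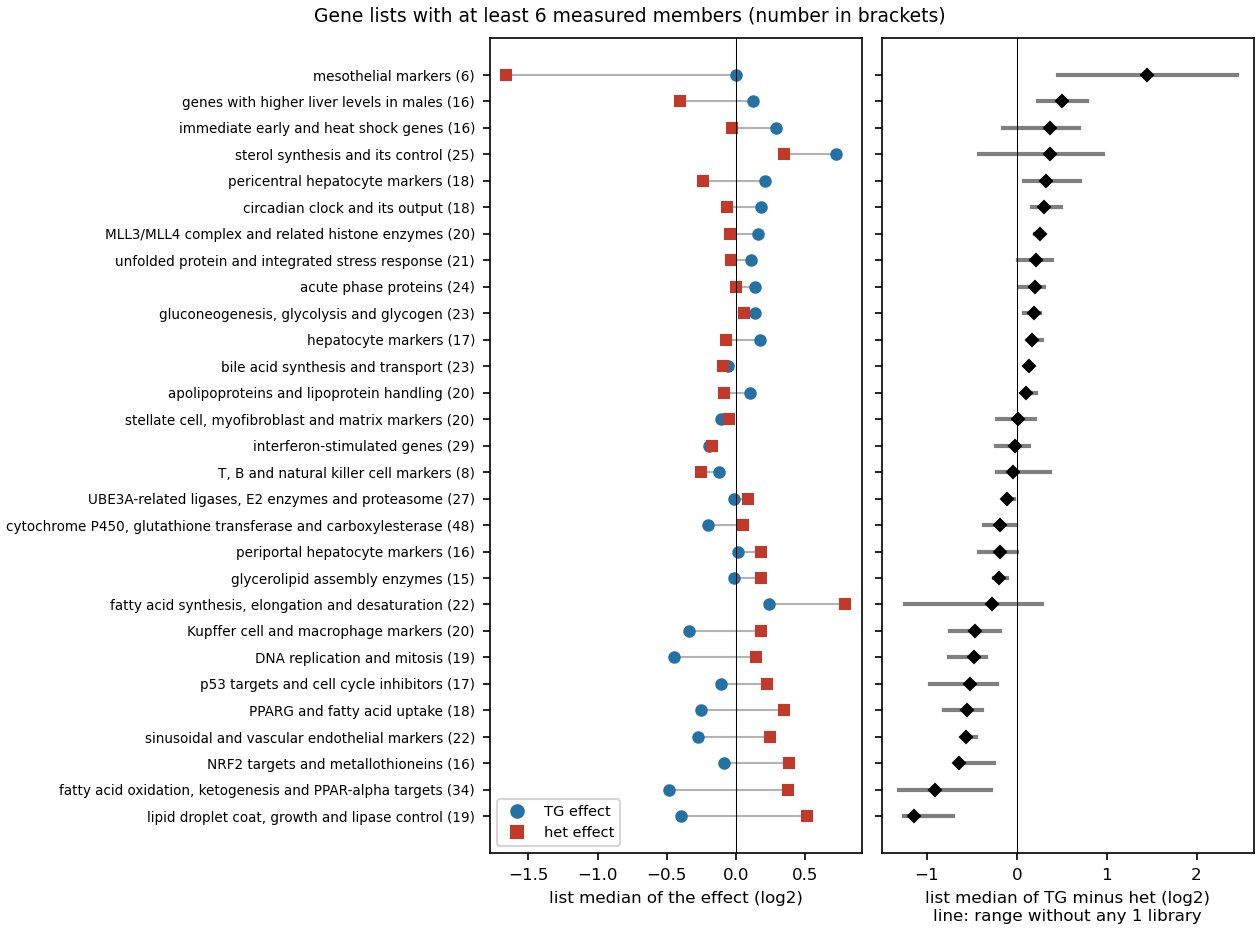
Left, the median log2 effect of each gene list with at least 6 measured members in TG (circles) and het (squares); right, the median of TG minus het (diamonds), with a line for its range when any single library is left out. Among these lists the droplet list lies lowest, at -1.15. Lines that cross 0 are those of fatty acid synthesis, sterol synthesis, interferon-stimulated genes and immediate early and heat shock genes. Those of the stellate cell and lymphoid markers cross 0 too.

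Markers of liver cell types were measured in the same way. Hepatocyte markers had 0 calls of 17 and a median difference of 0.17 (0.28 without WT replicate 1 of the TG table, 0.28 without Ube3a TG replicate 2 and 0.28 without WT replicate 2 of the het table). Endothelial markers had 1 call of 22, Gpr182, an orphan receptor of sinusoidal endothelium. Below 0 were 20 of 22 differences, 13 of them with an unadjusted p under 0.05, against 8.28% of all genes lower at that level. Over all 11754 genes, 5690 differences were below 0. Gpr182 was 1034 and 964 in WT and 760.1 and 746 in Ube3a TG, and 208 and 221 in WT and 317 and 367 in Ube3a het (difference -1.07, limma adjusted p = 0.0457). Flt4, the VEGF receptor of lymphatic and sinusoidal endothelium and not on the list, had effects of -0.45 and 0.56 (difference -1.0, limma adjusted p = 0.0338). The median of the endothelial list was -0.56, from -0.60 to -0.46 with each library left out in turn, and 20 to 21 of 22 members stayed below 0. Its summed level was 29901 and 30842 in WT and 24524 and 24668 in Ube3a TG, and 7385 and 7845 in WT and 8737 and 8933 in Ube3a het, without overlap. These markers thus lay in the same direction as Col4a1, Col4a2, Mcam and Flt4.

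Kupffer cell and macrophage markers had 0 calls of 20 and 17 differences below 0, with a median of -0.47 (-0.25 without Ube3a TG replicate 1, -0.71 without Ube3a TG replicate 2, -0.19 without WT replicate 1 of the het table, -0.73 without WT replicate 2 of the het table, -0.74 without Ube3a het replicate 1 and -0.29 without Ube3a het replicate 2). Their summed level was 49398 and 45809 in WT and 32954 and 41985 in Ube3a TG, and 10866 and 15522 in WT and 13055 and 17358 in Ube3a het, with groups that overlapped in the het table only. Stellate cell and matrix markers had 2 calls of 20, Col4a1 and Col4a2, against 0.434% of all genes called. Mesothelial markers, 6 of 15 measured, had a median of 1.45 (2.45 without WT replicate 1 of the TG table, 0.46 without WT replicate 2 of the TG table and 0.94 without Ube3a TG replicate 2). Upk3b was 235 and 74.8 in WT and 103 and 205 in Ube3a TG, and 79 and 73.8 in WT and 14.7 and 16.1 in Ube3a het, and Gpm6a was 144 and 86.9 in WT and 96.5 and 203 in Ube3a TG, and 33.2 and 47.2 in WT and 8.62 and 10.4 in Ube3a het. Both had a clear effect, lower, in Ube3a het alone (limma adjusted p for the difference = 0.212 and 0.143). The median of this list was 2.45 without WT replicate 1 of the TG table, 0.46 without WT replicate 2 of the TG table and 0.94 without Ube3a TG replicate 2. Neutrophil, lymphoid, bile duct, erythroid, and pancreas and gut markers had 3, 8, 4, 1 and 3 measured members and 0 calls.

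Calls near the threshold and single libraries set the limits of the list of 51 genes. Just inside were Cdh1 and Col4a1 (limma adjusted p = 0.0496 for each), and just outside were Fam134b, a receptor for turnover of endoplasmic reticulum (0.98, limma adjusted p = 0.0507), and Adora1, an adenosine receptor (-1.89, limma adjusted p = 0.0536). Without WT replicate 1 or 2 of the TG table there were 22 and 25 calls, 16 of the 51 among them each time. Without Ube3a TG replicate 1 or 2 there were 137 and 643, with 47 and 51. Without WT replicate 1 or 2 of the het table there were 5 and 17, with 4 and 8, and without Ube3a het replicate 1 or 2 there were 6 and 7, with 5 and 6. Few genes stayed called each time, Ube3a, C230091D08Rik and Clstn3 among them. All 51 kept the sign of the difference in every setting that tested them, which their choice by these same data favours.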

How the data were processed

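Liver RNA was taken up in TRIzol and made into TruSeq libraries, per the labels' protocols. Subread 1.5.2, featureCounts, DESeq2 and mm10/GRCm38 appear in the submitters' processing notes, with no role or order. The annotation and strandedness of counting were not stated in any source at hand. Values in the deposited tables are a signal, namely read counts that the authors divided by a factor for each library: all were whole multiples of what 1 read is worth, within 0.001 read. Each table was scaled separately. The lowest gene means were 11.2 (TG) and 17.8 (het), so lower genes were not analysed here.

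Tables were joined by gene name. A model of 4 group means was fitted to log2(value + 1), pseudocount 1, over all 8 libraries with limma 3.58.1 in R 4.3.3 (moderated with a trend, robustly), so each table's scale is carried by its own WT pair. The procedure was tested on simulated data. Tried instead were edgeR 4.0.16, DESeq2 1.42.0 and limma-voom on recovered reads, other pseudocounts, filters and scalings, a replicate block, and fits without single libraries. Positions came from GENCODE M21 by symbol for 96.5% of genes, and promoters, start sites and older names from RefSeq on GRCm38.p6.

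Members and 34 gene lists were chosen with earlier results of these data known. Named genes were Ube3a and Kmt2d, the 15 largest called differences in each direction without predicted gene models, the 8 of smallest p in each opposite and same-direction pattern, up to 6 called members of each list or else the 3 of smallest p, called genes with effects of 1 sign, and 2 genes either side of the threshold. Other names, such as the remaining called genes, were added after their values were seen. Results for some genes that this rule names are not reported here.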

Additional observations from a re-analysis of the deposited data

How the results depend on the processing

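All 51 called genes kept the sign of their difference in every alternative that tested them, which their choice by these same data favours. The alternatives that changed the number of calls beyond 1.5 times were DESeq2 with 350 calls (143 higher, 207 lower, all 51 among them), limma-voom with 30 (12 higher, 18 lower) and library sizes without the 20 most abundant genes, with 15 higher and 36 in all. edgeR with TMM gave 44, of which 43 were among the 51. Leaving out a single library gave 5 to 643 calls, 3 to 260 higher and 1 to 383 lower. Such a fit leaves an arm with 1 library, assumed to vary like the others. The cause of these shifts was not tested.

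For the mean of the effects, calls were 46 with DESeq2, 2 without the 20 most abundant genes and 2 with library quality weights. They were 0 with limma-voom, without robust estimates and with the replicate block, and 0 to 103 without a single library. Genes with an unadjusted p under 0.05 numbered 935 with all libraries.

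Pattern counts followed their own thresholds. Lower in TG and higher in het were 440 genes at a minimum effect of 0.25, 33 at 1 and 79 at a mean CPM of at least 5, and the reverse pattern 306, 11 and 41. Higher in both were 110, 1 and 10, and lower in both 84, 1 and 4. Without the 20 most abundant genes in the library size, 11 were higher and 16 lower in both. Fewer libraries make the rule of no overlap easier to meet, so the counts that follow are not on equal terms with the full ones. Leaving out a library gave 133 to 208 genes lower in TG and higher in het, 63 to 112 of the reverse, 26 to 76 higher in both and 11 to 36 lower in both.

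Leaving out single libraries moved the difference of Spp1 between -0.69 and 0.0596 and that of Cd79a between -1.57 and 0.102, turning positive without WT replicate 2 of the TG table and without Ube3a TG replicate 2, respectively. Neither gene was called with all libraries. Replicate numbers pair libraries only by number: deviations of same-numbered libraries correlated at 0.147 in the TG table and -0.045 in the het table. A fit with the replicate block gave 46 calls, 17 higher and 29 lower, 22 of them among the 51. The correlation of the effects across genes, which was added after seeing the data, stayed negative, from -0.362 to -0.196 (Pearson) without a single library. Depth limits low genes of the het table, with 13171145 to 17748088 reads per library.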
